A study of Mus musculus with 20 samples.

Results

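The Hox cluster genes were read in mouse embryonic fibroblasts (MEF) and embryonic stem cells (ESC) that carried 2, 1 or 0 copies of a mutant Mysm1 allele. Every gene whose symbol in the platform annotation is Hoxa, Hoxb, Hoxc or Hoxd followed by a number was taken. This gave 38 Hox cluster genes, among 19057 genes with a probe of a single symbol. These were 10 HoxA, 10 HoxB, 9 HoxC and 9 HoxD genes. They were covered by 57 probes, with 1 probe for each of 25 genes and more than 1 for the other 13.

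Hox genes encode homeodomain transcription factors that give cells their position along the body axis and along the limbs. They lie in 4 clusters on different chromosomes, and within a cluster genes of low paralogue number are switched on earlier and further towards the head than genes of high number. In pluripotent stem cells the clusters are held silent by Polycomb complexes, one of which places ubiquitin on nucleosomal histones, while cultured fibroblasts keep the Hox code of the body region they came from. Mysm1 encodes a deubiquitinase that removes ubiquitin from those histones.

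RNA was measured on Illumina bead arrays in 20 samples, all on the C57BL/6 background. MEF are mesenchymal cells grown from embryos, and the 11 MEF samples were homozygous (hom, Mysm1tma1/tm1a as the labels spell it, n = 3), heterozygous (het, Mysm1+/tm1a, n = 4) or wild type (wt, n = 4), from 3 to 4 animals a group. The 9 ESC samples were hom, het and wt with n = 3 each. They were separate passages, the number of lines is not stated, and p-values from them therefore measure only the spread between these samples, which may be technical. The full name of the allele is Mysm1tm1a(KOMP)WTSI, a gene-trap allele that interrupts the transcript, and no group carried any other allele or received a treatment according to the labels.

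The MEF hom 3 array was brighter than the rest, with a median raw signal of 95.7 against 53.2 to 59.9. Between 28.5 and 31.8% of probes were detected on each array, 13 to 83 beads stood behind each Hox value, and the number of arrays limits the precision. Log2 intensity of Mysm1 was 5.43, 5.40 and 4.98 in hom MEF, 6.38, 6.41, 6.73 and 6.46 in het MEF, and 7.41, 7.51, 6.98 and 7.42 in wt MEF. In ESC it was 6.47, 5.42 and 4.81 in libraries labelled hom, 4.45, 6.68 and 6.67 in libraries labelled het, and 7.69, 7.48 and 7.64 in libraries labelled wt. The libraries labelled hom 1 and het 1 therefore lay at the level of the other's genotype, and ESC values are given below by label. All 10 pluripotency markers were detected on every ESC array and 1 or 2 of them on MEF arrays. Of 12 fibroblast markers, 11 were detected on every MEF array, and Postn was on none. MEF arrays also held markers of other cells, with 1 to 7 of 8 epithelial, 4 to 8 of 10 skeletal muscle, 5 to 9 of 11 macrophage and 3 to 6 of 10 cartilage genes detected. In such mixed cultures, fewer cells of a type and less RNA per cell cannot be told apart.

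Hox transcripts were read mostly in MEF. A gene was called detected on an array when at least 1 of its probes had a detection p-value under 0.01 against the negative control beads. Of the 38 genes, 1 was detected on all 9 ESC arrays, 10 on some and 27 on none, whereas 16 were detected on all 11 MEF arrays, 8 on some and 14 on none. Over the whole array, 36.4% of genes had 1 probe detected on all 11 MEF arrays. Single ESC arrays held 1 to 10 detected Hox genes and single MEF arrays 18 to 22.

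**Figure D1:**
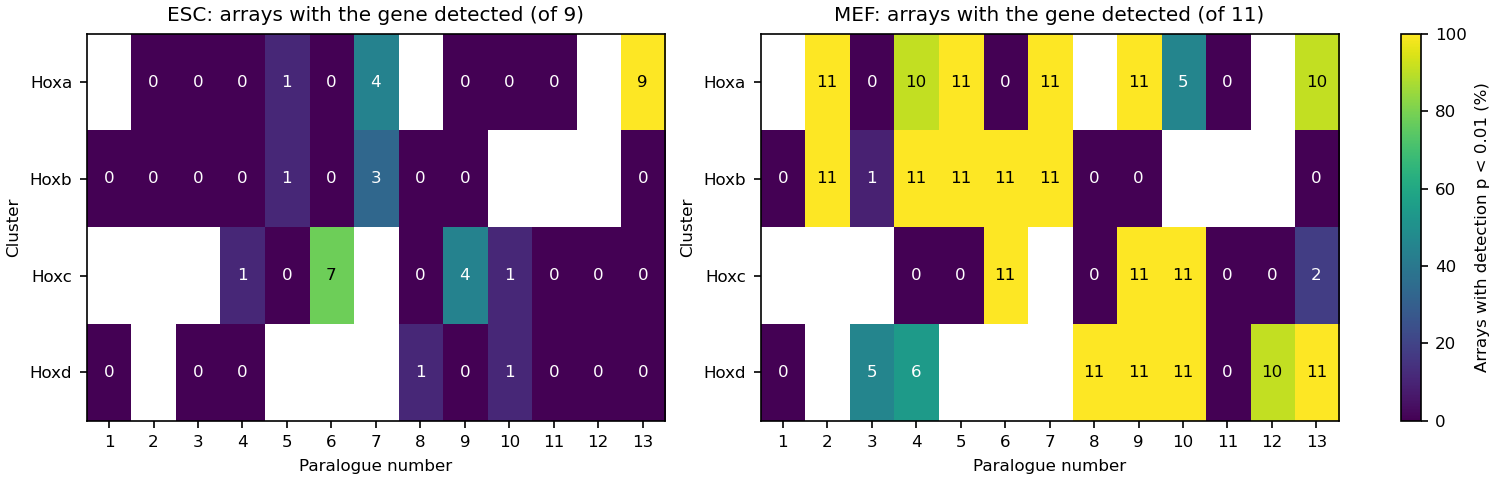
Number of arrays on which each Hox gene was detected (detection p under 0.01), by cluster (rows) and paralogue number (columns), in ESC (left, of 9 arrays) and MEF (right, of 11 arrays). White squares have no value here. In ESC only Hoxa13 reached all 9 arrays, while in MEF 16 genes reached all 11.

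By cluster, the genes on all 11 MEF arrays were Hoxa2, Hoxa5, Hoxa7 and Hoxa9, then Hoxb2, Hoxb4, Hoxb5, Hoxb6 and Hoxb7, then Hoxc6, Hoxc9 and Hoxc10, and Hoxd8, Hoxd9, Hoxd10 and Hoxd13. Hoxa4, Hoxa13 and Hoxd12 were detected on 10 MEF arrays, Hoxd4 on 6, and Hoxa10 and Hoxd3 on 5. Hoxc13, which acts in hair and nail, was on 2 (1 het, 1 wt) and Hoxb3 on 1 (het). No MEF array detected Hoxa3, Hoxa6, Hoxa11, Hoxb1, Hoxb8, Hoxb9, Hoxb13, Hoxc4, Hoxc5, Hoxc8, Hoxc11, Hoxc12, Hoxd1 or Hoxd11. The pattern had gaps along each cluster. Hoxc6 and Hoxc9 flanked the undetected Hoxc8, and Hoxd10 and Hoxd12 flanked the undetected Hoxd11. A probe below background gives no level, so a gap says that this probe did not rise above the control beads.

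Detection on 3 or more arrays of a cell type was required for testing, which left 22 Hox genes in MEF and 5 in ESC. On the array as a whole 47.2% of genes passed in MEF and 45.6% in ESC. In MEF the HoxB and HoxC clusters passed with 5 of 10 and 3 of 9 genes, and HoxA and HoxD with 7 of 10 and 7 of 9. Counted by paralogue number, 6 of 11 genes of groups 1 to 4 passed, 7 of 11 of groups 5 to 8, 6 of 7 of groups 9 to 10 and 3 of 9 of groups 11 to 13. The 3 were Hoxa13, Hoxd12 and Hoxd13, which act in the distal limb and the genital tubercle. Tbx4, a T-box factor of the hindlimb, was detected on all 11 MEF arrays, and neither Tbx5, its forelimb counterpart, nor Pitx1, another hindlimb regulator, was detected on any.

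Some genes rested on 1 probe of several. Of 3 Hoxa13 probes, 1 gave all the MEF detections and all 9 ESC arrays, and a second was detected on 1 ESC array. Hoxa9 had 2 of 3 probes detected, Hoxa10 and Hoxd12 had 1 of 2, and Hoxb3 had 1 of 4. For all values below, a gene was read by its brightest tested probe, and levels of different genes are not compared because probes differ in how brightly they hybridise.

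Wild-type ESC were set against wild-type MEF to show how far apart the cells lay without the mutation. For this comparison all 20 arrays were normalized together, and differences are wt ESC minus wt MEF on the log2 scale with limma's adjusted p (Benjamini-Hochberg over 17067 probes, n = 3 and 4). Of the 22 Hox genes tested, 17 passed the filter through MEF arrays alone and so had to be higher in MEF, and their number supports no direction. Past the threshold of 0.05 were 20 of 22, all lower in wt ESC, against 27.2% of all tested genes lower and 59.1% called in either direction. The same 20 did not overlap between the groups, against 60.9% of all genes.

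Hoxc6, a thoracic patterning gene, had log2 intensities of 5.60, 6.66 and 4.73 in wt ESC, against 9.83, 9.15, 9.19 and 9.71 in wt MEF. Its difference was −3.81 ± 0.56 (SE, adjusted p = 1.77e-05). Hoxc9, which specifies thoracic motor neuron columns, had 4.96, 6.28 and 4.82 in wt ESC and 9.23, 8.28, 8.61 and 9.05 in wt MEF, a difference of −3.44 ± 0.55 (adjusted p = 4.08e-05). In both genes wt ESC 2 was the highest of the ESC arrays and still lay below every MEF array. Hoxb7, an axial gene of the trunk, had 4.44, 5.32 and 4.36 in wt ESC and 7.47, 7.49, 7.97 and 7.24 in wt MEF, a difference of −2.84 ± 0.32 (adjusted p = 9.73e-07). Hoxa7, its paralogue in HoxA, had 4.96, 5.38 and 4.57 in wt ESC and 8.11, 6.93, 6.88 and 7.92 in wt MEF, a difference of −2.49 ± 0.44 (adjusted p = 1.23e-04). Among wt ESC arrays Hoxa7, Hoxb7 and Hoxc9 were detected on wt ESC 2 alone.

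For 17 of the 22 genes no wt ESC array was above background, and the ESC level is then only a ceiling. Their size is given as a bound, for which the ESC level on each array was raised to that of the dimmest probe detected there whenever the gene's probe was dimmer still. Hoxa5, which patterns the lung and the neck and chest vertebrae, had 4.31, 4.50 and 4.18 in wt ESC and 8.11, 8.37, 8.28 and 8.29 in wt MEF. It was at least 9.52-fold lower in wt ESC (measured difference −3.93 ± 0.18, adjusted p = 8.44e-12). Hoxb5, of the same paralogue group, had 4.51, 4.90 and 4.63 in wt ESC and 7.05, 7.70, 7.70 and 7.35 in wt MEF. Hoxd10, a gene of the lumbar cord and hindlimb, had 4.33, 4.35 and 4.35 in wt ESC and 7.03, 6.74, 6.66 and 6.84 in wt MEF. Both left a gap of more than 1 log2 unit between the cells. The reduction in wt ESC was at least 5.42-fold for Hoxb5, 3.66-fold for Hoxc10, 3.50-fold for Hoxd10, 3.30-fold for Hoxb2, 2.93-fold for Hoxd8, 2.67-fold for Hoxb4 and 2.16-fold for Hoxd13. With Hoxa5, genes of every cluster were among these. The bound was at least 1.57-fold for Hoxb6, 1.55-fold for Hoxd12, 1.47-fold for Hoxa2, 1.32-fold for Hoxa4 and for Hoxa9, 1.27-fold for Hoxd9 and 1.02-fold for Hoxa10. Hoxd4 was also past the threshold (−0.58 ± 0.18, adjusted p = 0.0125) with no bound above 1. Adjusted p of these 16 genes was 0.0163 or smaller. All 16 are among the 17 that passed the filter through MEF arrays alone, so their p-values support no direction either. Among wt MEF arrays, Hoxa10 was detected on 1, Hoxd4 on 2, and Hoxa4 and Hoxd12 on 3. Their wt MEF means thus held values below background, and the bounds of Hoxa10, Hoxa4 and Hoxd12 are not firm.

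The other 2 tested genes did not pass. Hoxd3 differed by −0.50 ± 0.27 (adjusted p = 0.115) and was not detected on any wt ESC array. Hoxa13 had 5.26, 5.53 and 5.62 in wt ESC and 5.07, 5.46, 5.50 and 5.38 in wt MEF, with a difference of 0.12 ± 0.21 and a 95% interval from −0.32 to 0.56 (adjusted p = 0.653). It was detected on every wt array of both cells by the same probe. Without MEF wt 1 the adjusted p of Hoxa10 was 0.0589, and without ESC wt 2 that of Hoxd4 was 0.0521. Of the 5 slides, slide 3 alone held arrays of both cell types. Its ESC arrays were labelled hom or het and its only MEF array was wt. Wild-type ESC and wild-type MEF thus shared no slide, and the fit without a slide term cannot separate cell type from slide. A fixed block for slide links them only through that MEF array and the ESC arrays labelled het. With slide as a fixed block 9 of 22 Hox genes were called (Hoxa2, Hoxa5, Hoxa7, Hoxb2, Hoxb4, Hoxb5, Hoxc10, Hoxd8 and Hoxd10), against 14.2% of all genes. The differences of the other 11 kept their sign, among them Hoxc6 at −3.44, Hoxc9 at −2.96, Hoxb7 at −2.00, Hoxd12 at −1.57, Hoxd13 at −0.94 and Hoxa9 at −0.91, while Hoxa4 was at −0.26.

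**Figure D2:**
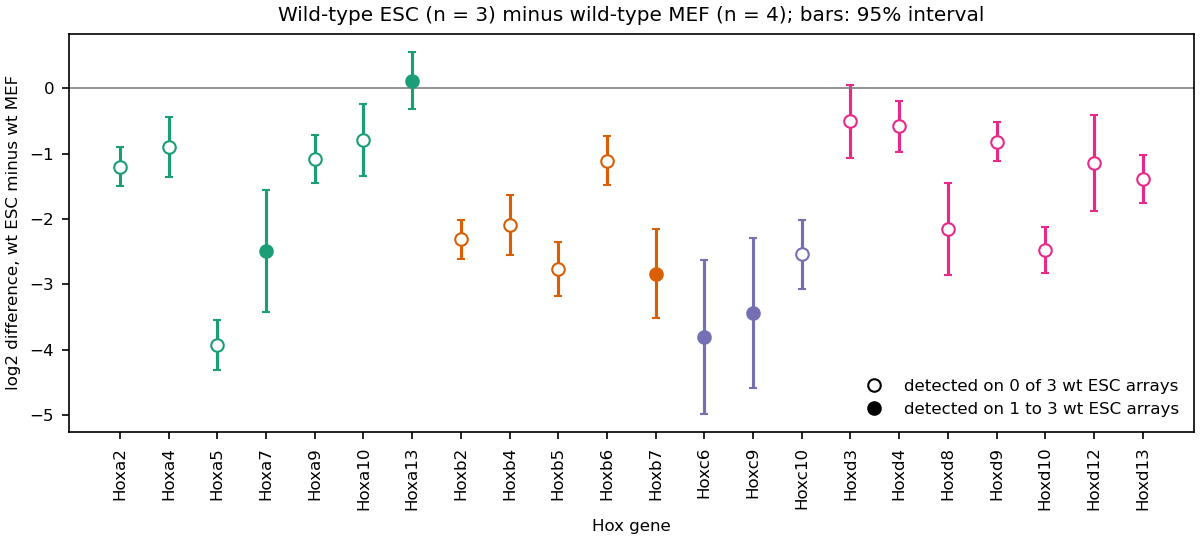
Log2 difference of each tested Hox gene, wt ESC (n = 3) minus wt MEF (n = 4), with its 95% interval from limma, coloured by cluster. Open points are genes detected on 0 of 3 wt ESC arrays, for which the point is a measured difference against background. Differences run from −3.93 for Hoxa5 to 0.12 for Hoxa13.

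Within MEF, some Hox genes varied widely between single arrays, and that variation crossed genotype. On the log2 scale the range over the 11 arrays was 0.39 for Hoxd10 and 1.82 for Hoxd12. Hoxd12, a digit patterning gene, was at 6.67, 6.73 and 5.77 in hom, 6.20, 6.70, 5.74 and 5.35 in het, and 6.56, 5.22, 4.91 and 6.30 in wt. Hoxa7, an axial gene of the trunk, was at 8.30, 8.26 and 6.90 in hom, 8.20, 8.37, 6.90 and 6.76 in het, and 8.21, 7.05, 7.0 and 8.02 in wt. Both genes were high on hom 1, hom 2, het 1, het 2, wt 1 and wt 4 and low on hom 3, het 3, het 4, wt 2 and wt 3, so each genotype held high and low arrays.

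The same 6 and 5 arrays were parted by the first principal component of all tested MEF probes other than Hox probes, which held 68.0% of the variance. Of the 22 Hox genes, 6 had no overlap between the 6 and the 5 arrays, against 45.5% of all tested genes. Hoxa7 had the widest gap at 0.97, from 8.02 to 8.37 on the 6 arrays and from 6.76 to 7.05 on the 5. Hoxc6 (gap 0.42), Hoxc9 (0.38), Hoxd8 (0.33) and Hoxd12 (0.43) were likewise higher on the 6 arrays. Hoxa4, a gene of the neck region, was lower on them by a gap of 0.16, with 5.05 to 5.39 on the 6 and 5.55 to 6.03 on the 5. All 5 HoxB genes overlapped, as did Hoxa5.

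Hoxc6 was at 10.05, 10.13 and 9.31 in hom, 9.78, 9.73, 9.27 and 9.09 in het, and 9.88, 9.22, 9.26 and 9.77 in wt. Hoxc9 was at 9.43, 9.27 and 8.59 in hom, 9.39, 9.08, 8.33 and 8.40 in het, and 9.30, 8.37, 8.70 and 9.12 in wt. Hoxd8, an axial gene, was at 7.20, 7.08 and 6.16 in hom, 6.90, 7.13, 6.58 and 6.05 in het, and 7.19, 6.11, 6.22 and 7.21 in wt. In these 3 genes too hom 3 lay with the low het and wt arrays.

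Markers of other cells moved with the same arrays. Tested probes of these markers were among those that formed the component, so their parting along it was partly built in. Summed intensity of 8 epithelial genes was 225 to 279 on the 6 arrays and 705 to 1231 on the 5, and that of 10 skeletal muscle genes was 923 to 1175 on the 6 and 2910 to 5940 on the 5. Of the epithelial genes 1 to 3 were detected on each of the 6 arrays and 5 to 7 on each of the 5. Neural and pluripotency sums were also lower on the 6 arrays, at 294 to 328 and 249 to 269, against 356 to 712 and 308 to 877 on the 5. Of the pluripotency genes only Klf4 was detected on more than 1 MEF array. Its log2 intensity was 5.57 to 6.20 on the 6 and 6.76 to 9.43 on the 5. Other genes ran in the direction of Hoxa7. The macrophage sum was 4531 to 10457 on the 6 arrays and 1732 to 3107 on the 5. Sums of fibroblast, cartilage and endothelial genes overlapped, but the fibroblast genes Pdgfra (9.53 to 9.93 on the 6, 7.21 to 8.22 on the 5), Col3a1 (6.84 to 8.03 and 5.26 to 6.07) and Col1a2 (9.64 to 10.50 and 8.0 to 8.77) were higher on the 6 in log2 intensity. Tbx4 was likewise at 8.12 to 8.42 on the 6 and 7.23 to 7.77 on the 5. The fibroblast gene Vim ran the other way, at 12.20 to 12.76 on the 6 and 13.02 to 13.19 on the 5. The remaining fibroblast genes overlapped between the 6 and the 5. Their part in the Hox values was not tested.

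Other genes of wide range did not follow these sets. Hoxa10, which patterns the lumbar region and the uterus, was at 4.90, 5.37 and 4.98 in hom, 5.64, 5.83, 4.43 and 5.33 in het, and 5.88, 4.92, 4.70 and 4.93 in wt. Hoxa13 was at 5.33, 5.29 and 6.01 in hom, 4.93, 5.96, 5.62 and 5.71 in het, and 5.14, 5.56, 5.60 and 5.48 in wt. Hoxc10, a hindlimb and lumbar gene, was at 7.19, 7.20 and 6.82 in hom, 6.79, 6.81, 7.89 and 6.99 in het, and 6.98, 6.82, 7.05 and 7.17 in wt. Het 3 set the top of the Hoxc10 range, and the highest Hoxd9 value, 6.08, was on het 3 as well.

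Hoxd3, which patterns the neck vertebrae, was at 5.39, 5.65 and 4.63 in hom, 4.68, 5.65, 4.41 and 4.73 in het, and 5.18, 4.59, 4.35 and 5.41 in wt. Hoxd4, its neighbour in the cluster, was at 5.81, 5.37 and 4.65 in hom, 5.04, 5.10, 5.03 and 4.79 in het, and 5.24, 5.07, 4.83 and 4.95 in wt. Both were near the detection limit. Hom MEF held the highest Hoxd4 value on hom 1 and the lowest on hom 3. The 6 genes not printed array by array, Hoxa4, Hoxa9, Hoxb6, Hoxd9, Hoxd10 and Hoxd13, had ranges from 0.39 to 0.98.

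**Figure D3:**
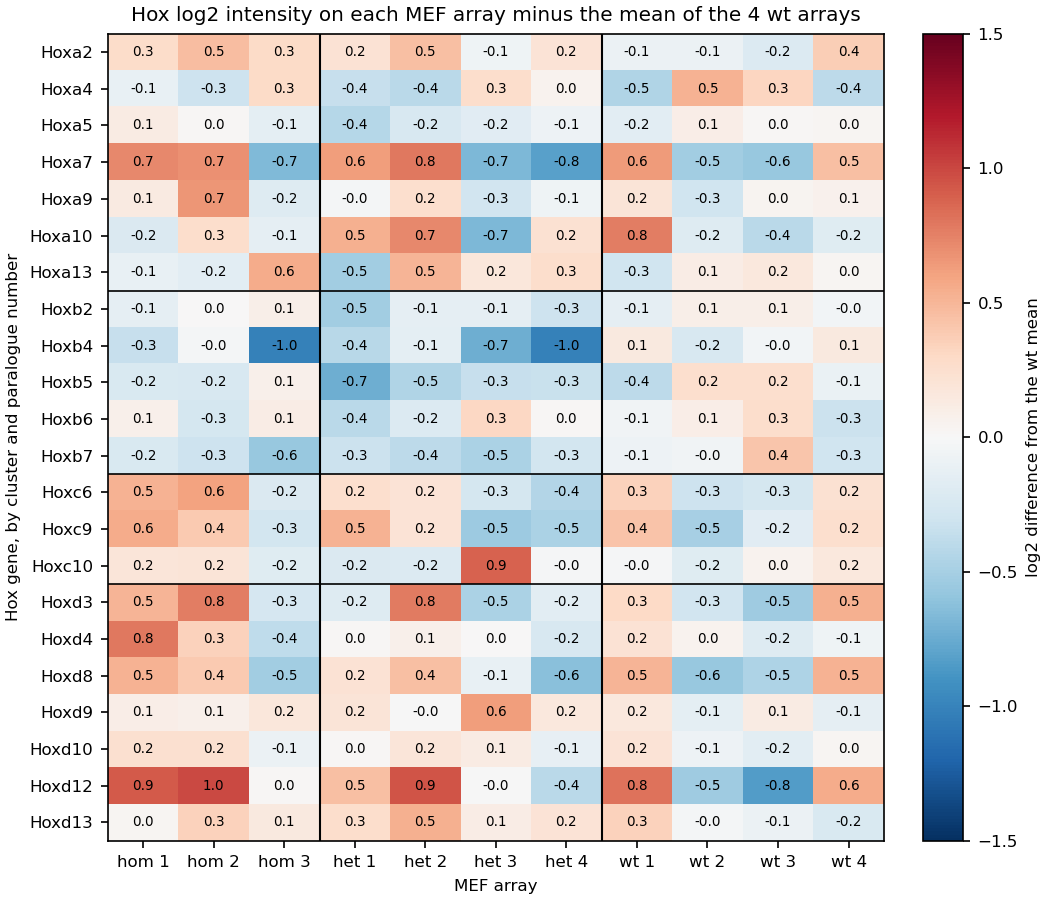
Log2 intensity of each of the 22 tested Hox genes on each MEF array minus that gene's mean over the 4 wt arrays, with hom, het and wt arrays from left to right and genes by cluster from top to bottom. Red is above and blue below the wt mean. Hoxa7, Hoxd8 and Hoxd12 are red on hom 1, hom 2, het 1, het 2, wt 1 and wt 4, which includes arrays of each genotype.

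Promoter sequence is shown for 3 genes: for Hoxa7 and Hoxd8, which parted the MEF arrays, and for Hoxa5 of the same cluster as Hoxa7, which did not. The sequences come from RefSeq on build GRCm38.p6, run 5′ to 3′ on the gene's strand from 250 bases before the transcript start to 50 after it, and lie in the promoter and first transcribed bases. Capitals mark AGGTCA, a core element bound by nuclear receptors such as the retinoic acid receptors, or TTTATG, a motif bound by Cdx factors, each searched on both strands. Hoxa5 lies at chr6:52204538-52204837 on the minus strand, Hoxa7 at chr6:52218524-52218823 on the minus strand, and Hoxd8 at chr2:74704365-74704664 on the plus strand.
Hoxa5: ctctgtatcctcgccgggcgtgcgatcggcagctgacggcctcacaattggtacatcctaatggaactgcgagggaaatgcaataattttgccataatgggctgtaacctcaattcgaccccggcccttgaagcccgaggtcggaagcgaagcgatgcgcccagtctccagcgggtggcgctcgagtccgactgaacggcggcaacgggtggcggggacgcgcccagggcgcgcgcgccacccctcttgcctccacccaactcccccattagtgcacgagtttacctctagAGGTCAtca
Hoxa7: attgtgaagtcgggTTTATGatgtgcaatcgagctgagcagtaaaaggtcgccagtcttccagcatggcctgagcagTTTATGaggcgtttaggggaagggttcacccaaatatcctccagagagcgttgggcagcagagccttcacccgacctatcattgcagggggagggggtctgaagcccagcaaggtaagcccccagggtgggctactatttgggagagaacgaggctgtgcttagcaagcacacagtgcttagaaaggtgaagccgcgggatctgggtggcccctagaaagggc
Hoxd8: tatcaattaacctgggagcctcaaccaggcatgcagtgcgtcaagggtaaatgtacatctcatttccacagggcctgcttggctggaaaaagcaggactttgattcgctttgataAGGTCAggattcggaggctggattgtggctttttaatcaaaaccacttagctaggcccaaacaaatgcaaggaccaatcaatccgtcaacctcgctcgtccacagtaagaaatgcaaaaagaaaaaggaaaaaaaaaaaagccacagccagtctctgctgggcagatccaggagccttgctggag
Hoxa5 held 1 AGGTCA and no TTTATG, Hoxa7 held 2 TTTATG and no AGGTCA, and Hoxd8 held 1 AGGTCA and no TTTATG. The table gave 24 promoters for 22 of the 38 Hox genes. AGGTCA was in 7 of those 24 (29.2%) and in 16.3% of all promoters in the table, and TTTATG was in 5 (20.8%) and in 11.9% of all. These promoters held 29 CpG in Hoxa5, 9 in Hoxa7 and 6 in Hoxd8, and the median was 14.5 over Hox promoters and 7 over all. A match of letters describes the sequence and is not evidence of binding.

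Hom MEF were compared with wt MEF to ask whether the Hox genes differ without normal Mysm1. None of the 22 Hox genes was called by limma (adjusted p = 0.999 for each), against 0.0111% of all tested genes, and 0 had an unadjusted p under 0.05. No Hox gene was free of overlap between the groups, against 5.08% of all genes. The median difference was 0.12 over the Hox genes and 0.02 over all genes, with 14 Hox genes higher and 8 lower in hom, and 54.2% of all genes higher. Of the 95% intervals, 18 of 22 lay within a change of 1 on the log2 scale in either direction, and their bounds ran from −1.05 to 1.65. For those 18 a change of more than 2-fold in measured intensity lay outside the interval. The fit held no slide term, though no slide held both hom and wt MEF. Of the 18, Hoxa10 was detected on 1 hom and 1 wt array, and Hoxd4 on 2 of each. For such dim genes the interval does not limit the change in RNA. The median by cluster was 0.10 in HoxA, −0.13 in HoxB, 0.22 in HoxC and 0.18 in HoxD. Differences were negative for all 5 HoxB genes and positive for all 7 HoxD genes, and none passed the test. These signs rested on single arrays. HoxB had 2 positive genes with the series matrix values or the first principal component as a covariate, and also without wt 2 or wt 3 (medians −0.05 in both). As a covariate the component was taken over all tested MEF probes, Hox probes included. HoxD had 6 positive genes with that covariate or without wt 2, wt 3 or hom 2, and 5 without hom 1. Without hom 3 the HoxC and HoxD medians were 0.48 and 0.45, and with slide as a fixed block they were 1.09 and 0.81. The HoxC median was 0.06 without wt 2 and also without hom 1. Markers of other cells also differed in median, with 0.92 for cartilage (6 of 6 tested genes positive), −0.46 for epithelial (1 of 6) and −0.32 for macrophage genes (0 of 9), none called. Their part in the Hox values was not tested.

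The smallest p belonged to Hoxb7, Hoxa2 and Hoxb4. Hoxb7 was at 7.42, 7.34 and 7.08 in hom, 7.33, 7.25, 7.18 and 7.38 in het, and 7.58, 7.60, 8.07 and 7.35 in wt, and hom minus wt was −0.37 ± 0.18 (SE). Hoxa2, a hindbrain and second branchial arch gene, was at 5.95, 6.14 and 5.96 in hom, 5.89, 6.13, 5.61 and 5.88 in het, and 5.59, 5.59, 5.47 and 6.04 in wt, and hom minus wt was 0.34 ± 0.18. In wt, 1 array overlapped with the hom arrays in each of these genes. Hoxb4, known for expanding blood stem cells when forced on, was at 6.21, 6.53 and 5.55 in hom, 6.14, 6.41, 5.82 and 5.54 in het, and 6.70, 6.31, 6.52 and 6.70 in wt, with hom minus wt at −0.46 ± 0.26. Hom 3 was the lowest hom array for Hoxb4, and without it the difference was −0.19. Hom and wt MEF shared no slide. With slide as a fixed block, which links them through het arrays, the Hoxb4 difference had the other sign, 0.44 (adjusted p = 0.484).

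Het MEF were likewise compared with wt MEF. By limma 0 of 22 Hox genes were called (adjusted p = 1.00 for each), against 0.0111% of all genes, and 2 had an unadjusted p under 0.05. No Hox gene was free of overlap, against 1.40% of all genes. The median difference was −0.03 over the Hox genes and 0.01 over all genes, with 8 higher and 14 lower in het, and 19 of 22 intervals lay within 1. Hoxb5, a gene of the neck and lung region, was at 7.33, 7.32 and 7.64 in hom, 6.82, 7.10, 7.21 and 7.23 in het, and 7.17, 7.81, 7.81 and 7.45 in wt. Its het minus wt difference was −0.47 ± 0.18 (unadjusted p = 0.0248 by limma), and that of Hoxb4 was −0.58 ± 0.24 (unadjusted p = 0.0377 by limma). Hoxb7 followed with −0.36 ± 0.17. All 5 HoxB genes were again negative, with a median of −0.36, and the comparison shares its wt arrays with hom against wt. Without wt 3 or without het 1, 1 of the 5 was positive (medians −0.25 and −0.38). Within slide 1, which held 3 het and 3 wt arrays, 0 Hox genes were called as well.

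Hom against het MEF gave 0 calls of 22 in limma (adjusted p = 1.00 for each), against 0.0111% of all genes, and 0 with an unadjusted p under 0.05. Hoxb5 was higher in every hom array than in every het array, by 0.34 ± 0.19, and was the 1 Hox gene with no overlap, against 3.08% of all genes. Hoxb2, which acts in the hindbrain and the facial nerve, was at 6.73, 6.87 and 6.95 in hom, 6.34, 6.73, 6.72 and 6.55 in het, and 6.73, 6.95, 6.94 and 6.82 in wt. Hom minus het was 0.26 ± 0.15. Hoxa5 was at 8.48, 8.37 and 8.22 in hom, 7.93, 8.12, 8.19 and 8.28 in het, and 8.21, 8.46, 8.38 and 8.39 in wt, and hom minus het was 0.23 ± 0.14. The median was 0.14 over the Hox genes and 0.01 over all, with 16 Hox genes higher and 6 lower in hom, and 52.8% of all genes higher. Markers of other cells also differed in median, with −0.37 for macrophage (0 of 9 tested genes positive), −0.50 for epithelial (0 of 6), 0.45 for cartilage (6 of 6) and 0.10 for skeletal muscle genes (7 of 7), none called. Their part in the Hox values was not tested.

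Slide 4 held hom 1, hom 2 and het 4. Taken alone these arrays called 10 of 22 Hox genes, all higher in hom (Hoxa7, Hoxa9, Hoxb4, Hoxc6, Hoxc9, Hoxd3, Hoxd4, Hoxd8, Hoxd10 and Hoxd12), but they called 61.1% of all genes. Het 4 was the single het array there, and it lay on the other side of the first principal component from hom 1 and hom 2. With 1 het array its spread is assumed to be that of the hom arrays.

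**Figure D4:**
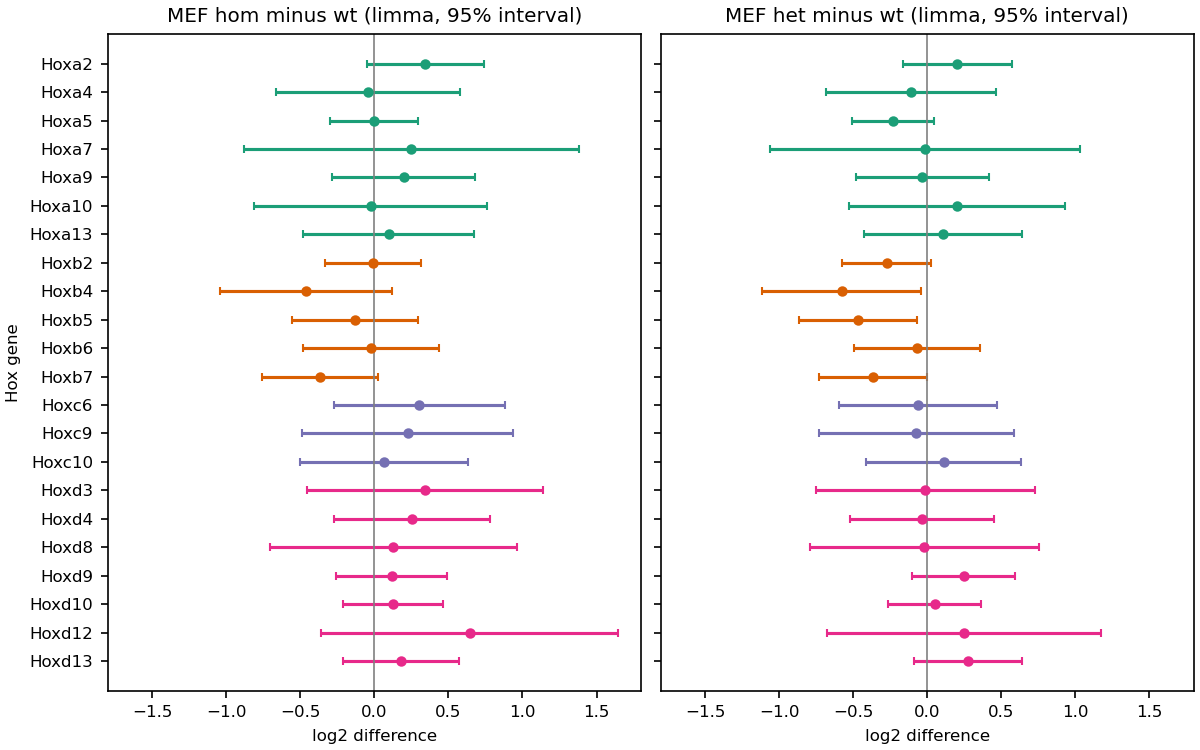
Log2 differences of the 22 tested Hox genes in MEF with 95% intervals from limma, hom minus wt (left, n = 3 and 4) and het minus wt (right, n = 4 each), coloured by cluster. The HoxB genes lie left of 0 in both panels, and no gene passed the adjusted threshold.

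Second probes were tested for Hoxa2, Hoxa9, Hoxb7 and Hoxc10. In hom against wt MEF each had the sign of the brighter probe. In het against wt they differed in sign for Hoxa2, at −0.07 against 0.20 for the brighter probe, and for Hoxa9, at 0.07 against −0.03. In hom against het they differed for Hoxb7, at 0.07 against −0.00254. None of the 4 second probes was called in a genotype comparison in MEF, where n = 3 to 4 arrays a group.

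In ESC the detected Hox signal sat mostly on the 3 arrays numbered 2. Hoxb7 was detected on those 3 alone. Hoxa7 and Hoxc9 were on those 3 and on the library labelled hom 3. Hoxa5, Hoxb5, Hoxc10, Hoxd8 and Hoxd10 were detected on het 2 alone, and Hoxc4 on hom 2 alone. The number of Hox genes detected was 2, 6 and 4 in libraries labelled hom, 2, 10 and 1 in those labelled het, and 2, 5 and 1 in those labelled wt.

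Hoxc6 was at 5.31, 6.99 and 5.40 in libraries labelled hom, 5.58, 7.63 and 4.83 in those labelled het, and 5.47, 6.51 and 4.67 in those labelled wt. Hoxc9 was at 4.56, 6.48 and 4.98 in hom, 4.82, 6.70 and 4.38 in het, and 4.88, 6.12 and 4.75 in wt. Hoxb7 was at 4.49, 5.38 and 4.53 in hom, 4.57, 5.75 and 4.38 in het, and 4.41, 5.20 and 4.33 in wt. In each of these genes the array numbered 2 was the highest of its genotype, and the 3 genotypes overlapped.

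Hoxa7 was at 4.65, 5.04 and 5.0 in hom, 4.81, 5.37 and 4.60 in het, and 4.88, 5.26 and 4.52 in wt. Hoxa13 was at 4.98, 5.21 and 5.18 in hom, 5.32, 5.11 and 5.13 in het, and 5.15, 5.40 and 5.49 in wt. Hoxa7 peaked on the arrays numbered 2 in each genotype. Hoxa13 peaked on number 2 in hom, on number 1 in het and on number 3 in wt.

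Fibroblast markers stood higher on the arrays numbered 2. These arrays were also parted from the other 6 ESC arrays by the first principal component of all tested ESC probes other than Hox probes. That component held 42.8% of the variance. The summed intensity of 12 fibroblast genes was 2142, 5055 and 1578 in libraries labelled hom, 2181, 7111 and 1813 in those labelled het, and 2360, 4587 and 1632 in those labelled wt, against 21561 to 37241 on MEF arrays. Between 6 and 10 of the 12 genes were detected on ESC arrays, with Postn on none. The macrophage sum was also highest on number 2 in each genotype, at 2672, 4091 and 2067 in hom, 2980, 3863 and 1849 in het, and 2352, 3131 and 2336 in wt. So was the cartilage sum, at 332 on hom 2, 392 on het 2 and 340 on wt 2, against 306 to 350 elsewhere. Sums of the pluripotency, neural, skeletal muscle, endothelial, epithelial and limb position genes did not peak on number 2 in every genotype. Log2 intensity of the collagen gene Col1a1 was 8.89 on hom 2, 9.34 on het 2 and 8.82 on wt 2, and 6.04 to 7.20 on the other 6 ESC arrays. Their part in the Hox values was not tested.

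**Figure D5:**
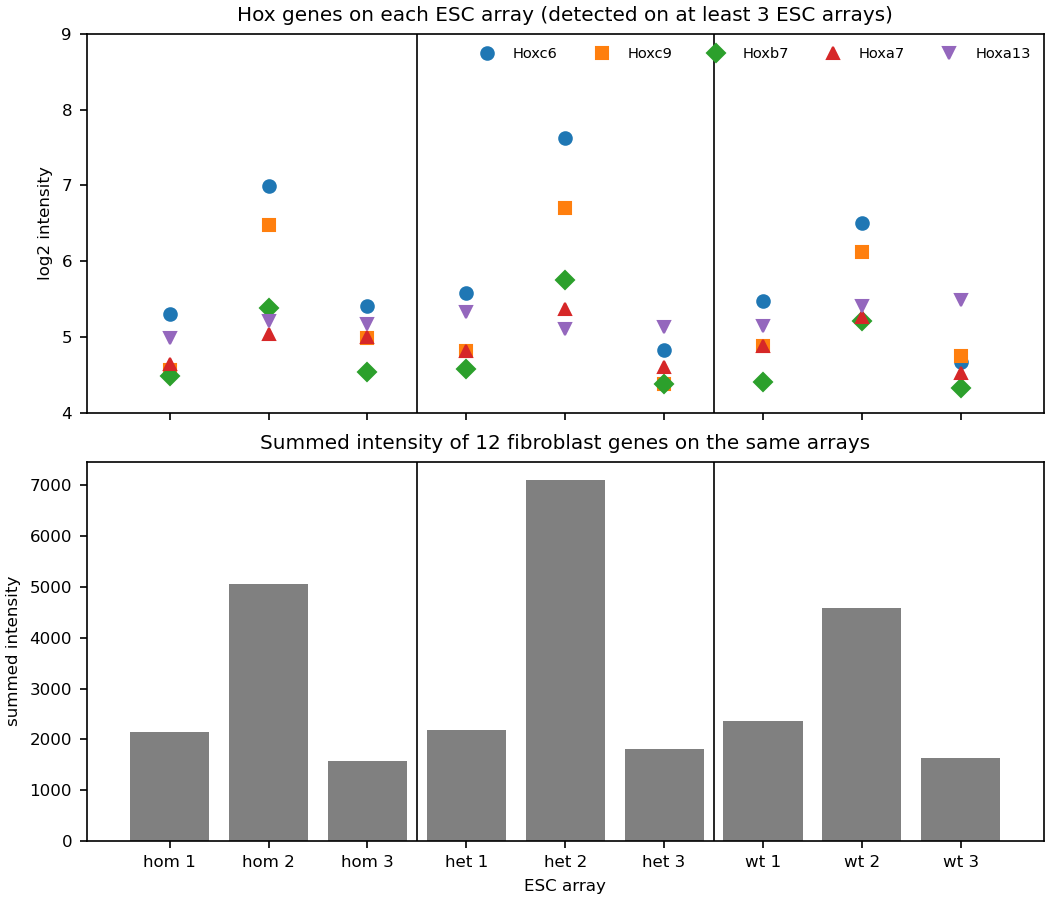
Log2 intensity of the 5 Hox genes detected on at least 3 ESC arrays (top) and summed linear intensity of 12 fibroblast marker genes (bottom) on each ESC array, with libraries labelled hom, het and wt from left to right. Levels of different genes are not comparable. Hoxc6, Hoxc9, Hoxb7, Hoxa7 and the fibroblast sum are highest on the array numbered 2 of each genotype.

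No ESC genotype comparison called a Hox gene. In hom against wt, limma called 0 of 5 Hox genes (smallest adjusted p = 0.554), against 0% of all genes, and none of the 5 was free of overlap, against 18.3% of all genes. Hom minus wt was −0.22 ± 0.15 for Hoxa13, 0.35 ± 0.72 for Hoxc6 and 0.15 ± 0.39 for Hoxb7. Hom and wt ESC shared no slide. With slide as a fixed block, which links them through het arrays, Hoxc6 was −0.29 and Hoxb7 −0.34. In het against wt the counts were also 0 of 5 (smallest adjusted p = 0.952), and none was free of overlap, against 9.26% of all genes. Het minus wt was −0.16 ± 0.15 for Hoxa13, 0.26 ± 0.39 for Hoxb7 and 0.46 ± 0.72 for Hoxc6. In hom against het, 0 of 5 were called and none was free of overlap, against 8.09% of all genes, with −0.06 ± 0.15 for Hoxa13, −0.10 ± 0.39 for Hoxb7 and −0.11 ± 0.72 for Hoxc6. In each comparison 0 Hox genes had an unadjusted p under 0.05.

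The 95% interval of Hoxc6 in hom against wt ran from −1.25 to 1.96, which leaves changes of more than 2-fold either way. Samples with the same number deviated together in ESC, and blocking on that number gave an interval of −0.13 to 0.83 (limma adjusted p = 0.343), and no Hox gene was called. Leaving out the libraries labelled hom 1 and het 1, or those numbered 2, also gave no call. The sign of the Hoxc6 and Hoxb7 differences rested on single libraries. Without hom 2, Hoxc6 was −0.19 and Hoxb7 −0.14 in hom against wt, and without het 2 they were −0.34 and −0.17 in het against wt.

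Whether a genotype difference itself differed between the cells was tested as an interaction, ESC minus MEF, over all 20 arrays. None of 22 Hox genes was called for hom (smallest adjusted p = 0.971) or for het (adjusted p = 1.00 for each) in limma, against 0% of all genes in both, and 0 and 1 had an unadjusted p under 0.05. Of these 22 genes, 12 were detected on no ESC array and 5 on 1, het 2. For the 12 the interaction sets a MEF difference against background in ESC and has no ESC difference of its own. In the hom interaction this holds for all 17. For the 5 in the het interaction, only het 2 was above background on the ESC side. For hom the smallest p belonged to Hoxb4 (0.51 ± 0.32), Hoxa2 (−0.33 ± 0.21) and Hoxd12 (−0.74 ± 0.51). For het they were Hoxa5 (0.61 ± 0.26, unadjusted p = 0.0308 by limma), Hoxb2 (0.41 ± 0.20) and Hoxb4 (0.63 ± 0.30). Hoxa5 was at 4.47, 5.19 and 4.45 in ESC labelled het and 4.31, 4.50 and 4.18 in ESC labelled wt. Its mean was 8.03 in het MEF and 8.26 in wt MEF, so both cells entered its value. All 5 genes named here were among those 17.

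Regulators and cofactors of the clusters were read beside them. In the genotype comparisons of both cells and in both interactions, limma called none of the listed TALE cofactors, Cdx and retinoic acid receptors, MLL and trithorax proteins, Polycomb proteins or genes next to the clusters. Against 59.1% of all genes, 7 of 8 TALE cofactors, which bind DNA together with Hox proteins, were called between wt ESC and wt MEF. Of these 2 were higher and 5 lower in wt ESC, among them Meis2 at −4.13 ± 0.34 (adjusted p = 1.87e-08) and Meis1 at −3.23 ± 0.32 (adjusted p = 2.02e-07). Pbx2 was higher by 1.00 ± 0.16, and Pbx4, below background on every wt MEF array, was at least 1.49-fold higher. Pbx3 and Pknox2, among the 5 lower, were below background on every wt ESC array. In this list and those below, a gene at background in 1 cell type could only be called higher in the other. Its call therefore supports no direction.

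Of 6 tested Cdx and retinoic acid receptor genes, which act on Hox promoters, 4 were higher and 1 lower in wt ESC. Rarb, below background on every wt ESC array, was at least 1.17-fold lower. Rxra differed by 0.86 ± 0.21 and Rarg by 0.85 ± 0.28, and Cdx1 by 0.58 ± 0.23. Of 10 MLL and trithorax genes, which keep Hox genes active, 8 were higher in wt ESC and none lower, with Dpy30 at 2.46 ± 0.16, Ash2l at 1.78 ± 0.18, Kdm6a at 1.42 ± 0.22 and Wdr5 at 1.52 ± 0.26. Over all genes, 59.1% were called in either direction and 27.2% lower in wt ESC.

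Of 17 Polycomb repressive complex 1 genes, which silence the clusters, 8 were higher and 6 lower in wt ESC. Among the 6, Phc3, Cbx8, Yaf2 and Bmi1 were below background on every wt ESC array. Among the 8, Cbx7 was below background on every wt MEF array. Cbx7 was at least 10.04-fold higher, Phc1 and Pcgf6 were higher by 2.91 ± 0.17 and 2.31 ± 0.22, and Bmi1 was at least 2.53-fold lower. Of 8 complex 2 genes, which place the repressive methyl mark, 6 were higher and none lower, with Mtf2 at 2.25 ± 0.17, Eed at 1.99 ± 0.19, Suz12 at 1.07 ± 0.22 and Rbbp4 at 0.84 ± 0.22. Phf19, among the 6 higher complex 2 genes, was below background on every wt MEF array. The counts for both complexes stand beside the 59.1% of all genes called in either direction.

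Genes that flank the clusters were called in both directions, against 59.1% of all genes called in either direction and 27.2% lower in wt ESC. Next to HoxA, 3 of 6 were higher and 1 lower in wt ESC, with Snx10 at 1.32 ± 0.28, Skap2 at 0.87 ± 0.24 and Hibadh at 0.53 ± 0.15. Jazf1, below background on every wt ESC array, was at least 1.62-fold lower. Next to HoxB, 1 of 2 was lower (Nfe2l1, −0.46 ± 0.16). Next to HoxC 1 of 6 was higher (Atp5g2, 0.51 ± 0.11), and next to HoxD 1 of 2 (Atp5g3, 0.34 ± 0.08).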

How the data were processed

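Members and gene lists were chosen with earlier results of these data known. The deposited non-normalized file has 4 columns an array, per the file headers: the mean intensity of a probe's beads, a detection p-value, the bead count, and the bead standard error (a signal column that was not used). The deposited series matrix holds intensity values the authors had normalized between arrays. BeadStudio and limma are named, without versions, per the submitters' processing notes. Non-normalized values were background-corrected by limma 3.58.1 under R 4.3.3 (neqc, control signal inferred from the detection p-value, offset 16). Quantile normalization ran over the 11 MEF or the 9 ESC arrays, or over all 20 for comparisons across cell types. Tested were the probes that 3 or more arrays detected (p under 0.01): 15125 in MEF (8 residual degrees of freedom), 14502 in ESC (6) and 17067 over both (14). Genotype (and cell type) formed 1 factor in lmFit, followed by eBayes (trend = TRUE), and p was adjusted by Benjamini-Hochberg over all probes tested, with a threshold of 0.05. A gene was read by its brightest tested probe. Of 45281 probes, 34885 had 1 gene symbol in the platform annotation, 18 several and 10378 none. No genome build is given in the sources used here, and promoters are from RefSeq on GRCm38.p6.

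Named with values were, per genotype comparison, Hox genes past the threshold or the 3 with the smallest p, and all past the threshold in wt ESC against wt MEF. Values on every array were given for the 10 widest ranges in MEF, for genes detected on at least 3 ESC arrays and for genes named with a difference. Genes of the regulator and neighbour lists were given values up to 4 a list by smallest p. The genes with promoters shown and those of slide 4 were chosen after their values were seen. Equal replicate numbers were checked by correlating deviations from group means: in ESC r was 0.37 to 0.77 in 9 same-numbered pairs and −0.62 to 0.20 in 18 others, and in MEF −0.82 to 0.80, so the numbers pair ESC samples only. The fits were tested on simulated data. The alternatives changed the normalization, background correction, filters, slide, series matrix, replicate block, array weights, the variance trend, threshold, probe choice, the first principal component and leaving out libraries. Figures were drawn with matplotlib 3.10.9.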

Additional observations from a re-analysis of the deposited data

How the results depend on the processing

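In the 6 genotype comparisons and the 2 interactions the number of Hox genes called was 0 under every alternative run, with the exception of hom against het MEF within slide 4 (10). In wt ESC against wt MEF it was 20 in the reported fit, 9 with slide as a fixed block, and 18 to 21 under the others. Its median was −1.74 as measured, or −1.27 with genes below background at their bound, and became −0.99 without background correction, −0.97 with an offset of 50, −0.95 with the series matrix, −1.20 with detection on 1 array (25 genes), −0.68 with no filter (38 genes) and −1.36 over every probe. Under both looser filters and over every probe more probes were counted, and for the others the cause was not tested. With slide as a fixed block the median of hom against wt MEF was 0.43, that of the hom interaction −0.39, and signs turned for Hoxb4 (0.44 in hom against wt MEF, −0.58 in the hom interaction), Hoxc6 (−0.29) and Hoxb7 (−0.34) in hom against wt ESC, Hoxb7 (−0.0742, also within slide 2) in het against wt ESC, and Hoxa13 (0.00484, also within slide 3) in hom against het ESC. The cause was not tested. Without the libraries labelled het 1 and hom 1, Hoxa13 in hom against het was 0.0744. Without the ESC libraries numbered 2, chosen after seeing the data, Hoxc6 and Hoxb7 in hom against het were 0.15 and 0.0322, and in wt ESC against wt MEF Hoxd4 and Hoxa10 were no longer called (adjusted p = 0.0681 and 0.0607). Leaving out single replicates moved Hoxc6 from −0.19 to 0.83 and Hoxb7 from −0.14 to 0.43 in hom against wt ESC, from −0.34 to 1.06 and −0.17 to 0.53 in het against wt, and from −0.70 to 0.70 and −0.39 to 0.32 in hom against het, where Hoxa13 ran from −0.11 to 0.00582. With the replicate block 0 Hox genes were called in each genotype comparison of either cell type, and the block changed no call, while all probes called in ESC became 599 in hom against wt, 37 in het against wt and 0 in hom against het, from 0 in each. In MEF the numbers share no animal or day in the labels. Each cell type normalized apart was not run for comparisons across cell types. The first principal component, taken here with Hox probes included, was a covariate in MEF only. Dim probes limit the rest: 14 Hox genes in MEF and 27 in ESC were below background on every array, and ESC rested on 5 genes.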
